A study of Mus musculus with 6 samples.

Results

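The DNA replication genes are 39 genes whose products license replication origins, unwind and copy the DNA, and supply its building blocks. They were chosen by gene symbol from the 38293 genes with a value in 6 B-cell tumors of Eμ-Myc mice, and all 39 were found. All 39 also passed the filter on low values, which kept 12751 genes. In every animal whose tumor was sequenced, the miR-146a-sufficient ones included, a c-Myc transgene was driven by the immunoglobulin heavy chain enhancer Eμ. This enhancer is active in the B lineage. The study asked how tumors that also lacked miR-146a, a microRNA that restrains NF-κB signaling, differed in their RNA.

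Both miR-146a-deficient tumors (Myc tg; miR-146a-/-) came from the thymus of C57BL6 mice aged 11 and 10 weeks. The deletion is carried by the whole animal, so it is not limited to B cells. Of the 4 miR-146a-sufficient tumors (Myc tg; miR-146a+/+, C57BL6), numbers 1 and 2 came from neck nodes at 18 and 16 weeks, and numbers 3 and 4 from the thymus at 10 weeks. The deficient mice are labelled female and the sufficient mice male, so labelled sex and genotype cannot be told apart. The sex label is in doubt for deficient tumor 2, where the Y-linked gene Ddx3y measured 24.6 RPKM, against 0.130 RPKM in deficient tumor 1 and 17.9 to 23.0 RPKM in the sufficient tumors. Mir146 has a value of 0 in each tumor and gives no check of the genotype. RNA was taken from whole tumor cell suspensions with no sort for B cells. The 7 B-cell markers, among them Cd79a and Pax5, summed to 1866 and 1042 RPKM in the deficient and to 1058 to 1535 RPKM in the sufficient tumors. In bulk RNA of this kind, fewer cycling cells and less replication RNA per cell cannot be told apart. RPKM is the number of reads per kilobase of gene, scaled for library depth. Without counts, the depth behind each value is unknown and the spread between tumors is the measure of error. Deficient tumor 1 stands apart in 1 transcript, Xist, the RNA of the inactive X chromosome, which has a value of 1.24e+06 RPKM there, against 1819 RPKM in deficient tumor 2 and 1585 to 2203 RPKM in the sufficient tumors. The RPKM of all genes summed to 1.93e+06 in deficient tumor 1 and 714062 in deficient tumor 2, against 675516 to 788919 in the sufficient tumors, and the part of this in the replication gene values was not tested.

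Replication starts in G1, when the origin recognition complex, Cdc6 and Cdt1 load the MCM helicase onto DNA. At the start of S phase Mcm10, Cdc45 and the GINS complex turn the loaded helicase into an active one. Polymerase alpha-primase then lays down primers, the clamp loader places the sliding clamp Pcna, and polymerases delta and epsilon extend the new strands. The E2F transcription factors, held back by the retinoblastoma family until late G1, are known to switch on many of these genes together. c-Myc is known to push B cells into the cycle, and Eμ-Myc tumors are known to divide fast.

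The promoters of the members were set beside each other because E2F is the best known regulator the genes share. The sequences are RefSeq windows on GRCm38.p6, from 250 bases before to 50 bases after the start of each gene, and 31 of the 39 members had at least one. The E2F motif was searched on both strands as TTTCCCGC, TTTCGCGC, TTTGCCGC or TTTGGCGC. It lay in the windows of 13 of 31 members (41.9%), against 1 of 17 mitosis genes (5.88%) and 704 of 27025 genes of the whole table (2.605%). In 8 members a motif lay before the RefSeq start. In Mcm5, Mcm6 and Pola1 it also lay before the start in the GENCODE M21 annotation. In Cdc6, Gins3, Mcm7, Orc1 and Rfc3 the GENCODE gene begins earlier, and the motif lies inside it. The stretches shown come from 4 of the 8, where the motif and its 20 flanking bases touch no exon of that annotation. Capitals mark the motif on either strand, and overlapping matches run together. The stretch of Cdc6 is chr11:98907993-98908040 (plus strand), that of Mcm5 is chr8:75109336-75109387 (plus), that of Mcm6 is chr1:128359725-128359835 (minus) and that of Pola1 is chrX:93632266-93632313 (minus).
Cdc6: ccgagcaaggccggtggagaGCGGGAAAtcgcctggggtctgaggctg
Mcm5: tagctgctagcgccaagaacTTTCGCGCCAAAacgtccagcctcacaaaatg
Mcm6: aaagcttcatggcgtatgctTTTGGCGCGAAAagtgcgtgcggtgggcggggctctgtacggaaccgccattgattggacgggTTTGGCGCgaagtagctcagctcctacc
Pola1: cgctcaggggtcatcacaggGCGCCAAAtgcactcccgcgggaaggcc

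In Mcm5 and in the first stretch of Mcm6, matches on the plus and minus strands overlapped, and Mcm6 held 3 matches before its start. The other members with the motif were Orc1, Cdt1, Mcm3, Mcm7, Gins3, Pold1, Pole2, Rfc3 and Lig1. The shorter core, each of these motifs without its leading T, lies inside every longer match and was found in 20 of 31 members (64.5%) and in 10.9% of all genes. A CCAAT box, on either strand, lay in 20 of 31 members (64.5%), in 14 of 17 mitosis genes (82.4%) and in 41.1% of all genes. The E-box CACGTG, to which Myc can bind, lay in 5 of 31 members (16.1%), namely Fen1, Lig1, Pola2, Rfc1 and Rpa1, and in 8.09% of all genes. These matches describe letters in a window and were not tested for binding.

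Every replication gene was expressed in every tumor. Mean levels over the 6 tumors ran from 7.21 RPKM for Orc1 to 238 RPKM for Pcna, with a median of 38.7 RPKM, against a median of 7.76 RPKM over all genes tested. Means were over 100 RPKM for 5 members, Pcna, Mcm6, Mcm5, Mcm3 and Rfc2, and under 20 RPKM for 10. When the members were ranked by mean level, the ranges of neighbors overlapped in 37 of 38 pairs, the exception being Gins3 above Orc1. The coefficient of variation over the 6 tumors had a median of 20.1% among the members and of 26.9% among all genes tested. It was lowest for Orc6 (5.40%) and highest for Rfc4 (38.4%) and Cdc6 (37.4%).

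**Figure D1:**
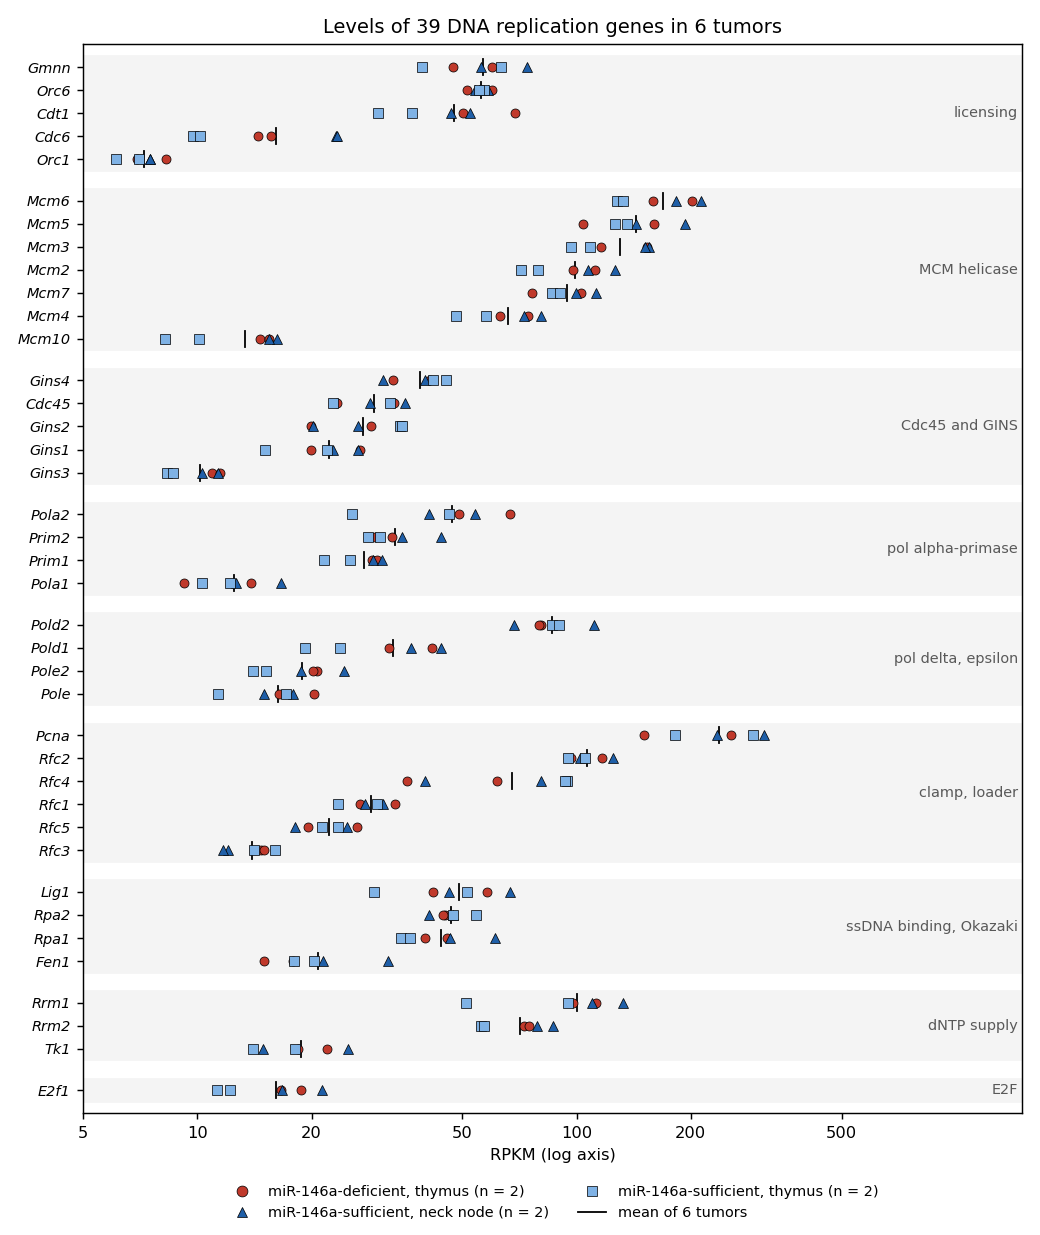
RPKM of each of the 39 replication genes (log axis) in each tumor, grouped by role, with 2 miR-146a-deficient thymic tumors, 2 sufficient neck node tumors and 2 sufficient thymic tumors as points and the mean of 6 as a line. Pcna sits highest at a mean of 238 RPKM and Orc1 lowest at 7.21 RPKM, and neighbors in the order of levels overlap in 37 of 38 pairs.

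Between genotypes, no replication gene passed the test, and the median of the members was close to that of all genes. Values were compared as log2(RPKM + 1) with limma over all 12751 genes, with Benjamini-Hochberg adjusted p-values and a threshold of 0.05. With 2 deficient and 4 sufficient tumors, 0 of 39 members passed, against 0.0627% of all genes tested, and the smallest adjusted p of a member was 0.893. At an unadjusted p under 0.05 there were also 0 of 39, against 3.62% of all genes. The median log2 difference of the members, deficient minus sufficient, was 0.09, and that of all genes was 0.13. In 23 of 39 members the difference was above 0. Median-ratio scaling moves all genes together, and after it the difference was above 0 in 10 of 39 and the medians were -0.08 and -0.01. In 36 of 39 members the difference was smaller than 0.5 on the log2 scale, with 95% intervals whose median half-width was 0.60. No member had both deficient tumors above all 4 sufficient tumors, against 9.15% of all genes, and 1 member, Fen1, had both below, against 2.09%. Without deficient tumor 1 these counts were 6 and 7 of 39, against 37.7% and 13.9% of all genes, and without deficient tumor 2, whose sex label is in doubt, they were 3 and 2, against 16.5% and 6.03%.

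Tumor site is shared only in part between the genotypes, so the 4 thymic tumors were also compared alone. Again 0 of 39 members passed (smallest adjusted p = 0.662, limma), against 0.0244% of all genes. At an unadjusted p under 0.05 there were 4 of 39 members, against 7.28% of all genes, with Cdt1, Pold1 and Mcm10 on the higher side and Rfc4 on the lower side in deficient tumors. The deficient tumors lay above both sufficient ones in 17 of 39 members, against 32.5% of all genes, and below both in 6 of 39 (Gins2, Gins4, Pold2, Rfc4, Rpa2 and Fen1), against 10.5%. The median log2 difference was 0.26 in the members and 0.19 in all genes. After median-ratio scaling the count of 17 became 6, against 18.5% of all genes, and the member median became 0.01. Without deficient tumor 2 the 4 members at an unadjusted p under 0.05 became 1.

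Among the sufficient tumors, most replication genes had higher values in the neck node tumors than in the thymic tumors, although none passed the test. The median log2 difference, neck node minus thymus, was 0.35 in the members and 0.10 in all genes. The adjusted p was under 0.05 in 0 of 39 members (smallest 0.316, Cdc6, limma), against 0.155% of the 12255 genes tested. At an unadjusted p under 0.05 there were 7 of 39, against 7.87% of all genes, and all 7 were higher in the neck node: Cdc6, Pold1, Mcm10, Mcm2, E2f1, Mcm3 and Mcm6. Both neck node tumors lay above both thymic tumors in 22 of 39 members (56.4%), against 27.9% of all genes. They lay below both in 4 of 39 (Gins2, Gins4, Rfc3 and Rfc4), against 12.6%. After median-ratio scaling the count of 22 became 13, against 20.01% of all genes, and the count of 7 became 3. Without neck node tumor 1 or without neck node tumor 2 the 7 became 2, against 5.91% and 5.57% of all genes. The neck node mice were 18 and 16 weeks old and the thymic ones 10 weeks, so site and age cannot be told apart.

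Both of the last comparisons use sufficient tumors 3 and 4, so their results are not independent. The 7 neutrophil markers moved with the neck node values: they summed to 1624 and 1675 RPKM in the neck node tumors and to 236 and 205 RPKM in the sufficient thymic tumors, and 6 of 7 passed the test (limma). None of the 7 was at 0 in any tumor. In the deficient tumors these markers summed to 108 and 275 RPKM. Their part in the replication gene values was not tested.

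**Figure D2:**
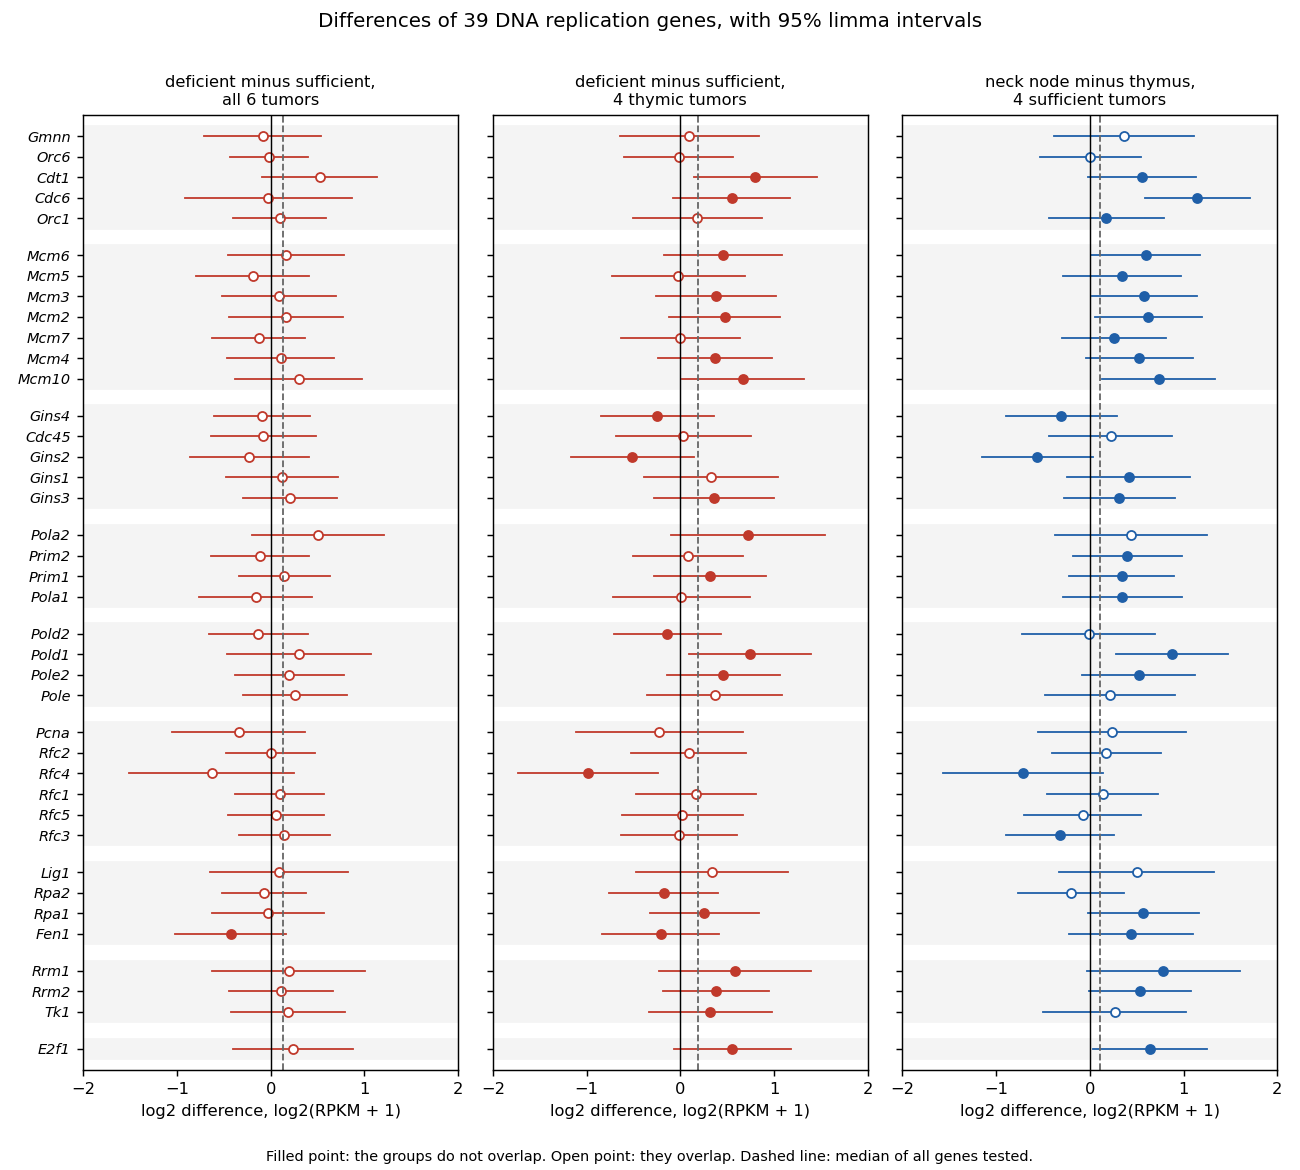
Log2 difference of each replication gene (points) with its 95% limma interval (lines) for deficient minus sufficient in all 6 tumors, the same in the 4 thymic tumors, and neck node minus thymus in the 4 sufficient tumors. Filled points are genes whose groups do not overlap: 1 in the first panel, 17 higher and 6 lower in the second, and 22 higher and 4 lower in the third, beside the median of all genes (dashed).

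Among the licensing genes, Cdc6 and Cdt1 stood lowest in the sufficient thymic tumors, while Orc6 was nearly level. Cdc6 (ENSMUSG00000017499), the ATPase that brings the helicase to the origin, measured 15.6 and 14.5 RPKM in the deficient tumors, against 23.2 and 23.4 RPKM in the neck node tumors and 9.74 and 10.2 RPKM in the sufficient thymic tumors. The 3 kinds of tumor did not overlap, and the deficient tumors lay in between. The neck node minus thymus difference of Cdc6 was 1.15 (SE 0.23, adjusted p = 0.316, limma), the greatest of the 39 members. Between genotypes its difference was -0.03 (SE 0.39), with a 95% interval of -0.92 to 0.87.

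Cdt1 (ENSMUSG00000006585), the partner of Cdc6 in loading, measured 50.2 and 68.6 RPKM in the deficient tumors, against 46.8 and 52.2 RPKM in the neck node tumors and 30.0 and 36.8 RPKM in the sufficient thymic tumors. Deficient tumor 1 lay below the higher neck node tumor, so the genotypes overlapped. The genotype difference of Cdt1 was 0.52 (SE 0.27, adjusted p = 0.893, limma), the highest of the members, and 0.80 (SE 0.28, adjusted p = 0.662) among thymic tumors. Neck node minus thymus it was 0.56 (SE 0.24, adjusted p = 0.628).

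Gmnn, which encodes geminin, the inhibitor that keeps Cdt1 from loading origins again, was the most abundant of the class by mean. Gmnn measured 60.01 and 47.3 RPKM in the deficient tumors, against 56.0, 74.0, 63.0 and 39.2 RPKM in sufficient tumors 1 to 4. Orc1, the origin recognition subunit that leaves the complex after S phase, was the least abundant member in each of the 6 tumors, at 6.93 and 8.24 RPKM in the deficient and 7.48, 7.52, 6.11 and 7.01 RPKM in the sufficient tumors. Both genes overlapped between genotypes.

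The MCM helicase genes were all higher in the neck node. All 7 of them, Mcm2 to Mcm7 and Mcm10, lay higher in both neck node tumors than in both thymic sufficient tumors, against 27.9% of all genes. Their median log2 difference was 0.58, against 0.10 in all genes. After median-ratio scaling all 7 differences stayed above 0 and 5 of 7 did not overlap, against the scaled share of all genes given above. Mcm6 measured 202 and 159 RPKM in the deficient tumors, against 213 and 183 RPKM in the neck node tumors and 128 and 133 RPKM in the sufficient thymic tumors. Mcm2 measured 112 and 98.1 RPKM in the deficient tumors, against 126 and 107 RPKM in the neck node tumors and 71.5 and 79.0 RPKM in the sufficient thymic tumors. Mcm3 measured 153 and 116 RPKM in the deficient tumors, against 155 and 152 RPKM in the neck node tumors and 96.4 and 108 RPKM in the sufficient thymic tumors. In all 3 genes the sufficient thymic tumors were the lowest of the 6 in RPKM. After median-ratio scaling the deficient and sufficient thymic tumors overlapped in all 3. The site differences were 0.60 (SE 0.24) for Mcm6, 0.62 (SE 0.24) for Mcm2 and 0.58 (SE 0.23) for Mcm3, with adjusted p-values of 0.628, 0.618 and 0.628 (limma).

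Mcm10 is not a subunit of the ring and acts when the helicase is switched on. It was the least abundant of the class in all 6 tumors, at 14.6 and 15.5 RPKM in the deficient, 16.2 and 15.4 RPKM in the neck node tumors and 10.1 and 8.20 RPKM in the sufficient thymic tumors. The deficient and neck node values of Mcm10 overlapped, and both thymic sufficient values lay below them. Its site difference was 0.73 (SE 0.25, adjusted p = 0.601, limma), and deficient minus sufficient among thymic tumors it was 0.66 (SE 0.27, adjusted p = 0.662).

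The 6 ring subunits, which assemble in equal numbers, had the same highest and lowest member in most tumors. By mean the order was Mcm6, Mcm5, Mcm3, Mcm2, Mcm7 and Mcm4, and it held in full in 2 of 6 tumors. Mcm6 was the highest of the ring in 5 of 6 tumors and Mcm4 the lowest in 6 of 6, and the ratio of Mcm6 to Mcm4 was between 2.29 and 2.71 in each tumor. Mcm5 ranged from 104 to 160 RPKM in the deficient and from 126 to 193 RPKM in the sufficient tumors, Mcm7 from 76.2 to 103 RPKM against 86.3 to 112 RPKM, and Mcm4 from 62.9 to 74.4 RPKM against 48.0 to 80.4 RPKM. Mcm5 and Mcm7 were the ring subunits below 0 between genotypes, with differences of -0.19 (SE 0.26) and -0.13 (SE 0.22). The other 4 lay between 0.09 and 0.16. After median-ratio scaling all 6 lay below 0, with Mcm5 at -0.36, Mcm7 at -0.30 and the other 4 between -0.08 and -0.01.

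Cdc45 and GINS, which join MCM to form the active helicase, did not share 1 direction between sites. Among the GINS genes, Gins2 measured 28.7 and 19.95 RPKM in the deficient tumors, against 26.4 and 20.1 RPKM in the neck node tumors and 34.3 and 34.7 RPKM in the sufficient thymic tumors. Gins4, the highest of the class in each tumor, measured 41.1 and 32.7 RPKM in the deficient, 39.9 and 30.9 RPKM in the neck node tumors and 45.4 and 41.9 RPKM in the sufficient thymic tumors. In both genes the sufficient thymic tumors were the highest of the 6. The site differences were -0.56 (SE 0.25, adjusted p = 0.630, limma) for Gins2 and -0.30 (SE 0.24, adjusted p = 0.749) for Gins4. Gins3 was the lowest of the class in each tumor, at 10.9 and 11.5 RPKM in the deficient tumors. The neck node values were 11.3 and 10.3 RPKM. The sufficient thymic values, 8.33 and 8.63 RPKM, were the lowest of the 6. After median-ratio scaling the sufficient thymic values of Gins3 overlapped those of the deficient and of the neck node tumors. The subunits of the 4-part GINS complex thus stood on both sides of 0 between sites, with Gins1 at 0.42 (SE 0.27) and Gins3 at 0.31 (SE 0.25), and each kept its side of 0 after median-ratio scaling. Cdc45, which ranged from 23.3 to 32.9 RPKM in the deficient and from 22.8 to 35.2 RPKM in the sufficient tumors, overlapped in all 3 comparisons.

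Among the polymerase alpha-primase genes, Pola2, the accessory subunit, was the most abundant by mean and Pola1, the catalytic subunit, the least abundant in all 6 tumors. Pola2 measured 49.0 and 66.8 RPKM in the deficient tumors, against 40.7, 53.9, 25.5 and 46.0 RPKM in sufficient tumors 1 to 4. Pola1 measured 13.8 and 9.20 RPKM in the deficient tumors, against 16.6, 12.7, 12.2 and 10.3 RPKM in sufficient tumors 1 to 4. Both genes overlapped between genotypes, and the ratio of Pola2 to Pola1 spread from 2.09 in sufficient tumor 3 to 7.27 in deficient tumor 2. The genotype difference of Pola2 was 0.50 (SE 0.31, adjusted p = 0.893, limma), and that of Pola1 was -0.16 (SE 0.26). Prim1, the catalytic primase subunit, ranged from 28.9 to 29.8 RPKM in the deficient and from 21.6 to 30.6 RPKM in the sufficient tumors. Prim2, its partner, ranged from 29.5 to 32.7 RPKM in the deficient and from 28.2 to 43.9 RPKM in the sufficient tumors. Both primase genes were higher in both neck node tumors than in both sufficient thymic tumors, against 27.9% of all genes. The differences were 0.34 (SE 0.23) for Prim1 and 0.40 (SE 0.24) for Prim2. After median-ratio scaling or quantile normalization Prim2 overlapped between sites and Prim1 did not.

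Of the replicative polymerases, Pold1, the catalytic subunit of polymerase delta, had the greatest site difference. Pold1 measured 41.7 and 31.9 RPKM in the deficient tumors, against 43.8 and 36.7 RPKM in the neck node tumors and 23.8 and 19.2 RPKM in the sufficient thymic tumors. The thymic sufficient values were again the lowest of the 6 in RPKM, and the deficient and neck node values overlapped. After median-ratio scaling the deficient and sufficient thymic values of Pold1 overlapped too. The site difference of Pold1 was 0.88 (SE 0.25, adjusted p = 0.577, limma), and deficient minus sufficient among thymic tumors it was 0.74 (SE 0.27, adjusted p = 0.662). Pold2, its accessory subunit, measured 80.3 and 79.4 RPKM in the deficient tumors, against 111, 68.5, 86.1 and 90.1 RPKM in sufficient tumors 1 to 4, with a site difference of -0.01 (SE 0.30). Pole, the catalytic subunit of polymerase epsilon, was the lowest of the class by mean, at 16.4 and 20.3 RPKM in the deficient and 17.9, 15.0, 11.3 and 17.2 RPKM in the sufficient tumors. Pole2, the second subunit of polymerase epsilon, ranged from 20.1 to 20.7 RPKM in the deficient and from 14.01 to 24.3 RPKM in the sufficient tumors, with a site difference of 0.52 (SE 0.25). Both Pold2 and Pole overlapped between sites and between genotypes over all 6 tumors.

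Pcna, the clamp, was the most abundant member by mean. Pcna measured 256 and 151 RPKM in the deficient tumors, against 313, 234, 292 and 181 RPKM in sufficient tumors 1 to 4. The genotypes and the sites both overlapped, and the genotype difference was -0.34 (SE 0.31), with a 95% interval of -1.05 to 0.36. Of the clamp loader genes, Rfc4 varied most. Rfc4 measured 61.7 and 35.6 RPKM in the deficient tumors, against 80.8 and 39.9 RPKM in the neck node tumors and 94.6 and 93.1 RPKM in the sufficient thymic tumors. The sufficient thymic tumors were the highest of the 6, and the lowest value was in deficient tumor 2. The genotype difference of Rfc4 was -0.63 (SE 0.38, adjusted p = 0.893, limma), the lowest of the members, and it was -0.99 (SE 0.32, adjusted p = 0.662) among thymic tumors.

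The other loader genes were flatter. Rfc3, the least abundant of the class in each tumor, measured 14.7 and 15.0 RPKM in the deficient, 12.1 and 11.7 RPKM in the neck node tumors and 14.1 and 16.0 RPKM in the sufficient thymic tumors. Its site difference was -0.32 (SE 0.24). Rfc1, Rfc2 and Rfc5 overlapped in all 3 comparisons, with genotype differences of 0.10, 0.00 and 0.06. Over all 6 tumors Rfc1 ranged from 23.5 to 33.1 RPKM, Rfc2 from 94.8 to 125 RPKM and Rfc5 from 18.1 to 26.3 RPKM.

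Fen1, the nuclease that trims the flap of an Okazaki fragment before ligation, was the single member whose genotypes did not overlap. Fen1 measured 17.9 and 15.0 RPKM in the deficient tumors, against 31.9, 21.5, 17.9 and 20.3 RPKM in sufficient tumors 1 to 4. The higher deficient value, 17.87 RPKM, lay just under the lowest sufficient value, 17.94 RPKM. The genotype difference of Fen1 was -0.43 (SE 0.26, adjusted p = 0.893, limma), with a 95% interval of -1.02 to 0.17. Lig1, the ligase that seals the fragments, was the most abundant of the class by mean, at 58.1 and 41.9 RPKM in the deficient and 66.6, 46.0, 51.4 and 29.2 RPKM in the sufficient tumors. Of the single-strand binding genes, Rpa1 lay higher in both neck node tumors (difference 0.57, SE 0.25, adjusted p = 0.628, limma), while Rpa2 overlapped between sites (-0.20, SE 0.24). Rpa1 ranged from 39.8 to 45.4 RPKM in the deficient and from 34.4 to 60.8 RPKM in the sufficient tumors, and Rpa2 from 44.5 to 45.0 RPKM against 40.8 to 54.4 RPKM.

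The deoxynucleotide genes had their lowest values in sufficient thymic tumor 4 or 3. Rrm1, the large subunit of ribonucleotide reductase, measured 113 and 98.1 RPKM in the deficient tumors, against 133 and 110 RPKM in the neck node tumors and 95.01 and 51.2 RPKM in the sufficient thymic tumors. Tk1, the thymidine kinase of S phase, was the least abundant of the class in all 6 tumors, at 18.4 and 22.0 RPKM in the deficient and 24.98, 14.9, 18.1 and 13.98 RPKM in the sufficient tumors. Rrm2, the small subunit whose level limits the enzyme, measured 72.5 and 74.8 RPKM in the deficient tumors, against 86.6 and 78.5 RPKM in the neck node tumors and 55.9 and 57.0 RPKM in the sufficient thymic tumors. All 3 genes lay higher in both deficient tumors than in both thymic sufficient tumors, against 32.5% of all genes. After median-ratio scaling 0 of 3 did so. All 3 overlapped between genotypes once the neck node tumors were included. The site differences were 0.79 (SE 0.34) for Rrm1, 0.54 (SE 0.23) for Rrm2 and 0.26 (SE 0.32) for Tk1, with adjusted p-values of 0.628, 0.628 and 0.835 (limma).

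E2f1, the activating E2F factor, measured 16.7 and 18.8 RPKM in the deficient tumors, against 21.3 and 16.7 RPKM in the neck node tumors and 12.2 and 11.3 RPKM in the sufficient thymic tumors. The thymic sufficient tumors were the lowest of the 6, as in most MCM genes before scaling. Its site difference was 0.64 (SE 0.25, adjusted p = 0.621, limma), and its genotype difference was 0.24 (SE 0.28), with a 95% interval of -0.40 to 0.87.

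**Figure D3:**
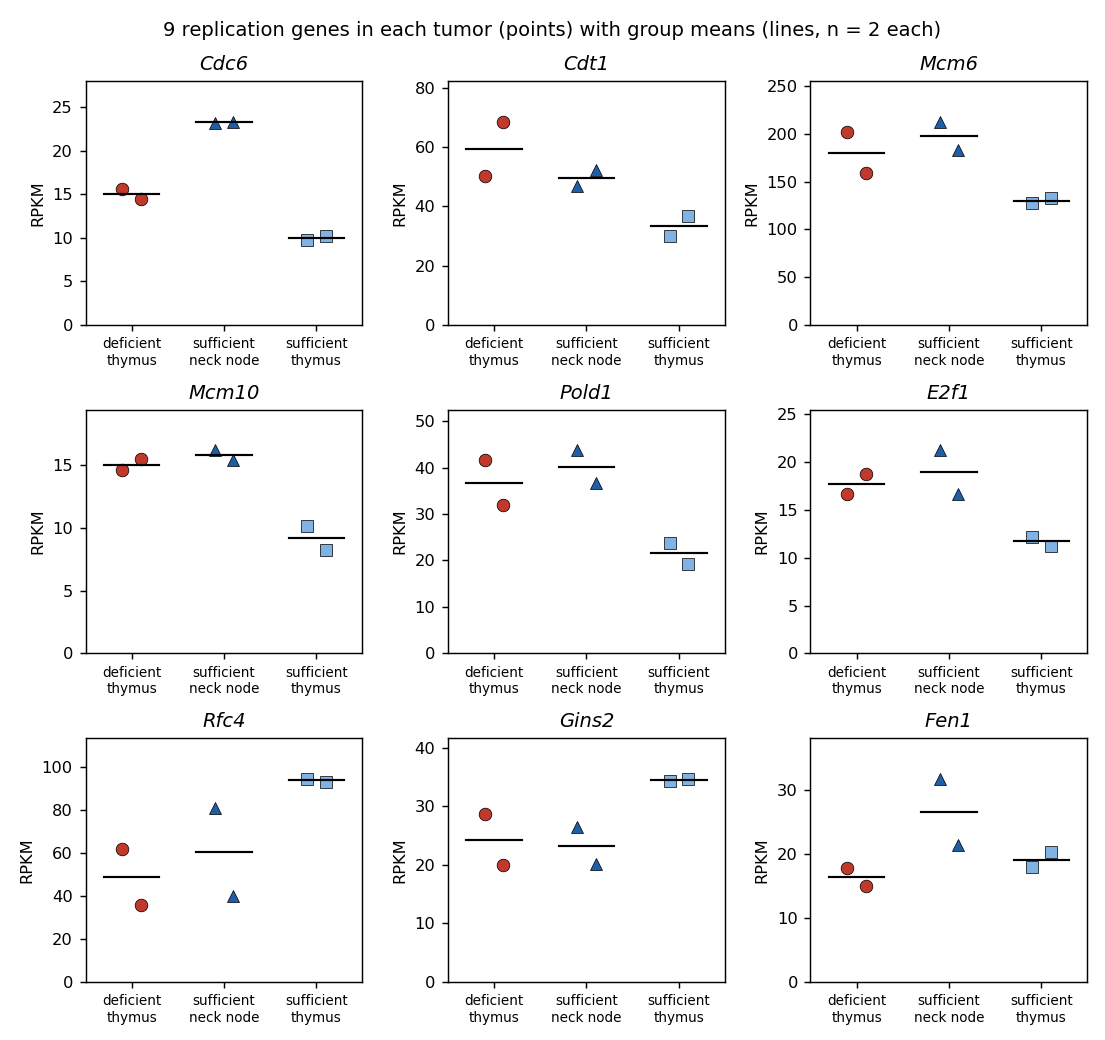
RPKM of Cdc6, Cdt1, Mcm6, Mcm10, Pold1, E2f1, Rfc4, Gins2 and Fen1 in each tumor (points, axes from 0) with the mean of each kind of tumor (lines): deficient thymic, sufficient neck node and sufficient thymic, n = 2 each. The sufficient thymic tumors are lowest in the first 6 genes and highest in Rfc4 and Gins2, and in Fen1 the deficient values of 17.9 and 15.0 RPKM lie below all sufficient values.

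The highest and lowest values of the replication genes were spread over tumors of both genotypes. Sufficient tumor 1, from a neck node, had the highest value of the 6 in 21 of 39 members and the lowest in 0. Sufficient tumor 3, from the thymus, had the lowest value in 17 of 39, and sufficient tumor 4 in 9. These ranks were not counted over all genes. The median deviation of all genes from their 6-tumor means was -0.21 in sufficient tumor 3 and 0.01 in sufficient tumors 1, 2 and 4. The deficient tumors lay on both sides. The median deviation of the members from their 6-tumor means, less that of all genes, was 0.09 in deficient tumor 1 and -0.21 in deficient tumor 2, against 0.27, 0.05, 0.05 and -0.21 in sufficient tumors 1 to 4. Deficient tumor 1 lay inside the range of the 4 sufficient tumors in 34 of 39 members (87.2%), against 77.4% of all genes tested. Deficient tumor 2 did so in 26 of 39 (66.7%), against 48.5%. The summed RPKM of the members was 2321 and 1925 in the deficient tumors and 2600, 2189, 1962 and 1868 in sufficient tumors 1 to 4.

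**Figure D4:**
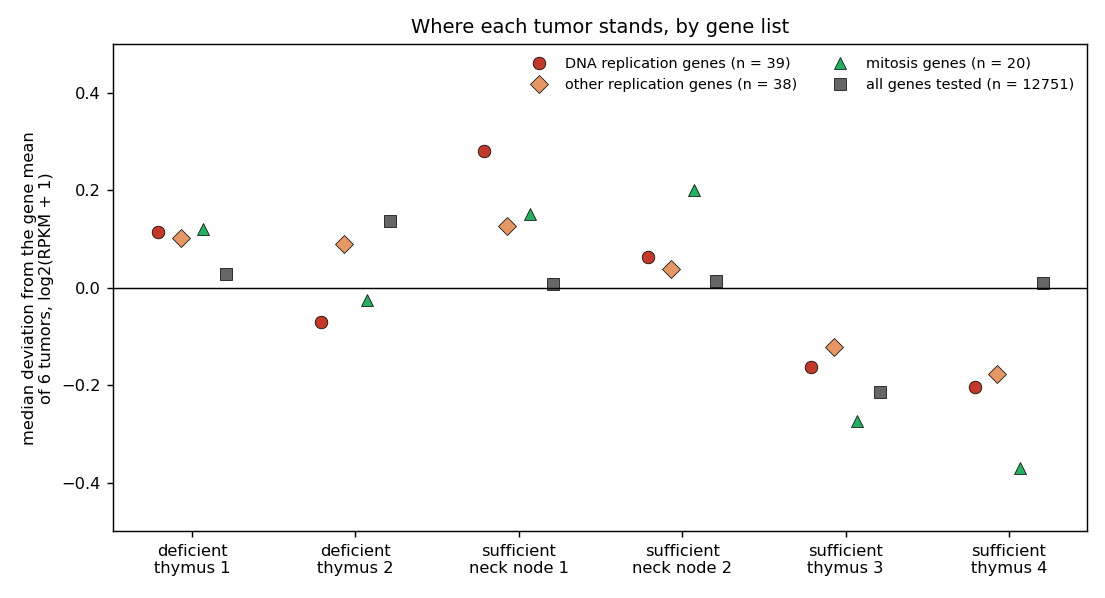
Median deviation from the 6-tumor mean, on the log2(RPKM + 1) scale, of the 39 replication genes, the other replication genes, the mitosis genes and all genes tested, in each tumor. The replication genes stand highest in sufficient neck node tumor 1 (0.28) and lowest in sufficient thymic tumor 4 (-0.20), with the deficient tumors at 0.11 and -0.07, and all genes are low in sufficient thymic tumor 3 (-0.21).

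Genes of the same pathway outside the 39 were examined in the same way. The list of other replication genes holds 39 more, of which 38 were tested and Pold4 has a value of 0 in each tumor. Between genotypes 0 of 38 passed (limma) and 0 had an unadjusted p under 0.05, the median difference was 0.15, and the smallest unadjusted p-values belonged to Timeless (0.51, SE 0.26), Dck (-0.51, SE 0.29) and Recql4 (0.50, SE 0.29). Timeless protects the fork, Dck salvages deoxycytidine and Recql4 is a helicase that acts at origins. Between sites the median was 0.25, against 0.10 in all genes. Of the 38, 0 passed (limma) and 5 were under 0.05 before adjustment, against 7.87% of all genes. The leading genes were Mcmbp (0.88, SE 0.25), Dna2 (0.97, SE 0.28) and Ticrr (0.93, SE 0.28). Mcmbp binds MCM, Dna2 trims Okazaki flaps and Ticrr brings Cdc45 to the origin. Dna2, for example, measured 11.3 and 11.0 RPKM in the deficient tumors, against 15.8 and 11.3 RPKM in the neck node tumors and 6.96 and 5.75 RPKM in the sufficient thymic tumors.

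The E2F and pocket protein genes other than E2f1 also gave 0 of 12 past the threshold in both comparisons (limma). At an unadjusted p under 0.05 there was 1 between genotypes, against 3.62% of all genes, and 3 between sites, against 7.87%. Both deficient tumors lay above all sufficient ones in 3 of 12, E2f4, E2f6 and Rb1, against 9.15% of all genes. After median-ratio scaling 2 of 12 lay above and 1 below. After quantile normalization 1 lay above and 1 below, so the count depends on the scaling. The repressor E2f6 measured 15.3 and 17.1 RPKM in the deficient tumors, against 11.9, 13.5, 7.91 and 7.63 RPKM in sufficient tumors 1 to 4, with a difference of 0.65 (SE 0.28, adjusted p = 0.893, limma). E2f2 and E2f3, both activators, had genotype differences of -0.58 (SE 0.27) and 0.56 (SE 0.32). Between sites the leading genes were E2f8 (0.99, SE 0.25, adjusted p = 0.511), an atypical E2F repressor, E2f3 (0.72, SE 0.27) and E2f6 (0.64, SE 0.25).

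The mitosis genes, which act later in the cycle, were also mostly higher in the neck node. Both neck node tumors lay above both thymic sufficient tumors in 18 of 20, against 27.9% of all genes. The median difference was 0.50, against 0.10 in all genes. The test was passed by 0 of 20 (limma), and 6 had an unadjusted p under 0.05, against 7.87% of all genes. After median-ratio scaling the count of 18 became 13, against the scaled share of all genes given above, and the median became 0.36. The leading genes were the mitotic kinase Plk1 (1.03, SE 0.23, adjusted p = 0.427), the topoisomerase Top2a (0.93, SE 0.23) and the spindle motor Kif11 (0.71, SE 0.23). Between genotypes the median was 0.11, 0 of 20 passed the adjusted or the unadjusted threshold, and the smallest unadjusted p-values belonged to Mki67 (0.72, SE 0.35), Ccna2 (0.35, SE 0.23) and Cenpf (0.34, SE 0.21). Mki67, the proliferation antigen Ki-67, measured 185 and 313 RPKM in the deficient tumors, against 192, 188, 134 and 94.2 RPKM in sufficient tumors 1 to 4.

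Markers of macrophages and of T and NK cells were low beside the B-cell markers, and their sums did not overlap between genotypes. The 8 macrophage markers summed to 85.0 and 120 RPKM in the deficient and to 25.8 to 63.8 RPKM in the sufficient tumors. The 10 T and NK cell markers summed to 15.3 and 18.5 RPKM in the deficient and to 21.5 to 68.1 RPKM in the sufficient tumors. Gene by gene, 5 of 8 macrophage markers lay above all sufficient tumors in both deficient ones, against 9.15% of all genes. Below them lay 2 of 10 T and NK cell markers, against 2.09%, and the other markers overlapped. The median deviation of the T and NK cell markers was -0.44 and -0.50 in the deficient tumors and -0.48 in sufficient tumor 4. None of these markers passed the test (limma), and none was at 0 in all 6 tumors. Between genotypes, 5 of 8 macrophage and 2 of 10 T and NK cell markers had an unadjusted p under 0.05. The share of all genes was 3.62%. The part of these markers in the replication gene values was not tested.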

How the data were processed

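Total RNA of tumor cell suspensions was made into single-end libraries, with 2 technical replicates per tumor per the labels. Per the submitters' processing notes the authors used STAR 2.3.0, HTSeq 0.5.4p3 and DESeq 1.12.1 on GRCm38 (mm10). The deposited values are RPKM, 1 per gene and tumor, made by the authors. The gene lengths and depths behind them are not given in the sources used here, and no read counts were used. RPKM divides by gene length, so levels were compared between genes as well as between tumors.

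Groups were taken from the labels. Genes with RPKM of at least 0.5 in at least 2 of the tumors compared were kept, values were taken as log2(RPKM + 1), and limma 3.58.1 (trend) in R 4.3.3 was fitted over all kept genes with Benjamini-Hochberg adjustment and a threshold of 0.05. Fold changes on this scale understate low genes. The test was tried on simulated data. The labels do not say whether tumors came from separate litters, and p-values measure only the spread between these tumors. The members and gene lists were chosen with earlier results of these data known. One marker gene of the planned lists is not reported here. Values in every tumor are given for members with an adjusted or unadjusted p under 0.05 in either comparison, members whose genotypes do not overlap, and the most and least abundant member of each class. A few further members were added after their values were seen. From other lists, genes with an adjusted p under 0.05 or the 3 smallest p-values are named. The alternatives were a pseudocount of 0.1 or 5, no filter, an RPKM of at least 2, median-ratio scaling, quantile normalization, no trend, a threshold of 0.1, leaving out each tumor, thymic tumors only, site as a covariate and a replicate block. Settings within the thymic comparison were chosen after seeing the data. Gene positions are from GENCODE M21 (GRCm38), promoters from RefSeq (GRCm38.p6), and Python 3.11.15 with pandas 2.3.3 was used for tables.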

Additional observations from a re-analysis of the deposited data

How the results depend on the processing

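No replication gene passed the threshold under any alternative in any of the 3 comparisons. The 15 log2 differences followed for single genes were chosen for small p-values in these same data, which makes a stable sign likely. They kept their sign in all 185 of their alternatives. Over all members between genotypes, the difference was above 0 in 23 of 39, and in 10 of 39 after median-ratio scaling. Members with both deficient tumors above the sufficient ones numbered 0, 17 among thymic tumors only, and 0 to 6 when 1 tumor was left out (6 without deficient tumor 1, and 3 each without deficient tumor 2 or sufficient tumor 1). The member median minus that of all genes was -0.037, and -0.256 to 0.052 when 1 tumor was left out, with -0.256 without deficient tumor 1. Among thymic tumors, the count of 17 was 6 after median-ratio scaling and 20 to 27 when 1 tumor was left out, with 27 without deficient tumor 2. The median minus that of all genes was 0.066, and -0.134 to 0.159 when 1 tumor was left out, with -0.134 without sufficient tumor 4. Between sites, the count of 22 was 13 after median-ratio scaling and 25 to 31 when 1 tumor was left out. Members with both deficient tumors below numbered 1 (Fen1), and 2 after median-ratio scaling (with Orc6) or quantile normalization (with Orc1). Fewer tumors leave more room for groups not to overlap, and the counts over all genes grew too. Members at an unadjusted p under 0.05 between genotypes, 0 of 39 in the report, numbered 6 with site as a covariate, against 8.97% of all genes, 4 among thymic tumors only (7.28%), 2 without sufficient tumor 2 (5.50%) and 1 each after median-ratio scaling (3.08%) or quantile normalization (3.25%).

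Deviations of same-numbered tumors correlated at 0.02 and 0.21 over 12751 genes. With 2 deficient tumors, the deviation of tumor 2 is that of tumor 1 with its sign reversed. The 2 correlations are thus not separate checks, and they cannot decide whether the replicate numbers pair the tumors. With a replicate block, which sets the deficient tumors against the neck node tumors alone, 0 members passed, 2 had an unadjusted p under 0.05, against 5.50% of all genes, and the member median was -0.13. Over all genes, the calls between genotypes were 8, 4 without sufficient tumor 3, 5 without either deficient tumor, 3 among thymic tumors or with site as a covariate, and 1 with the replicate block. The site calls over all genes were 19, 0 without a filter, 11 after quantile normalization or without sufficient tumor 4, 32 at a threshold of 0.1 or without sufficient tumor 1, and 67 without sufficient tumor 2. The depth behind each value is unknown. The median interval half-width of 0.60 between genotypes is for single genes before adjustment, so the adjusted threshold needs a larger difference. Between sites Cdc6, at 1.15 with a half-width of 0.56, had an adjusted p of 0.316 (limma).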

Other observations

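The full order of levels within a class, taken per length, was the same in every tumor in 1 of 8 classes, the clamp and clamp loader, while the highest or lowest gene was more often shared. Gins4 was the highest and Gins3 the lowest of Cdc45 and GINS in 6 of 6 tumors, Pold2 was the highest of the replicative polymerases in 6 of 6, Fen1 was the lowest of its class in 6 of 6, and Tk1 was the lowest of the deoxynucleotide genes in 6 of 6. The exceptions included Pole, the lowest of its class in 4 of 6 tumors, and Lig1, the highest of its class in 3 of 6. By Dixon's test at the 95% level within the 4 sufficient tumors, 0 of 39 members had a tumor that stood apart from the other 3.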
